A study of Mus musculus with 24 samples.

Results

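The genes described here encode the 4 subunits of the AMPA receptor (Gria1, Gria2, Gria3 and Gria4) and the 5 subunits of the kainate receptor (Grik1, Grik2, Grik3, Grik4 and Grik5). They were chosen by symbol, with earlier results of these data known. All 9 were present among the 55254 genes of the count tables. They passed the low-count filter in NeuN+ nuclei, in NeuN- nuclei and in all libraries together. Nuclei of the hippocampus were sorted by flow cytometry on the neuronal nuclear protein NeuN, and their total RNA was sequenced. The mice were male C57BL/6N animals aged 6 months of 4 genotypes, namely wild type (WT), Mutyh-/-, Ogg1-/- and the double knockout of both genes (DKO), with 3 libraries of NeuN+ and 3 of NeuN- nuclei each, 24 in all. Mutyh and Ogg1 are DNA glycosylases that start base excision repair of oxidised guanine and of adenine mispaired with it. No tissue-specific driver is named for either knockout. The comparison of each knockout with WT asked whether loss of a glycosylase went along with altered receptor subunit RNA, and the comparison of NeuN+ with NeuN- nuclei asked in which nuclei each subunit RNA was found.

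AMPA receptors are tetramers that carry most fast excitatory transmission in the hippocampus, and their number at the synapse changes with plasticity and memory. GluA2, the product of Gria2, makes the channel nearly impermeable to calcium once its RNA has been edited. Kainate receptors are assembled from GluK1 to GluK3, which can form channels alone, and GluK4 and GluK5, which need one of the former. They act at mossy fibre synapses of CA3 and on interneurons, where they also modulate transmitter release.

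The 9 genes lie on 8 chromosomes and are long. In GRCm38 coordinates, Gria1 (ENSMUSG00000020524) spans 318.9 kb of chromosome 11 (57011387 to 57330244, plus strand) and Gria2 (ENSMUSG00000033981) spans 121.4 kb of chromosome 3 (80681450 to 80802835, minus strand). Gria3 (ENSMUSG00000001986) is X-linked (41400854 to 41678601, plus strand, 277.7 kb). Gria4 (ENSMUSG00000025892, 4417896 to 4796234, 378.3 kb) and Grik4 (ENSMUSG00000032017, 42518135 to 42944493, 426.4 kb) share chromosome 9 and the minus strand. Grik1 (ENSMUSG00000022935) covers 394.4 kb of chromosome 16 (87895900 to 88290265, minus strand). Grik2 (ENSMUSG00000056073) is the longest of them, with 693.9 kb of chromosome 10 (49094833 to 49788766, minus strand). Grik3 (ENSMUSG00000001985) lies on chromosome 4 (125490700 to 125714173, plus strand, 223.5 kb), 8.67 Mb from Mutyh. Grik5 (ENSMUSG00000003378) is the shortest (chromosome 7, 25009849 to 25072346, minus strand, 62.5 kb). No annotated gene on the opposite strand overlaps any of them.

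RefSeq's promoter table for GRCm38.p6, which holds 250 bases before and 50 after each start, had an entry for 6 of the 9 genes (Gria2, Gria4, Grik2, Grik3, Grik4 and Grik5) and none for Gria1, Gria3 and Grik1. The promoters of Gria2 and Gria4 are shown because, of the AMPA subunits with an entry, Gria2 differed much and Gria4 little between neuronal and non-neuronal nuclei. The Gria2 window is chr3:80802786-80803085 and the Gria4 window chr9:4796185-4796484, both read on the minus strand, 5′ to 3′.
Gria2: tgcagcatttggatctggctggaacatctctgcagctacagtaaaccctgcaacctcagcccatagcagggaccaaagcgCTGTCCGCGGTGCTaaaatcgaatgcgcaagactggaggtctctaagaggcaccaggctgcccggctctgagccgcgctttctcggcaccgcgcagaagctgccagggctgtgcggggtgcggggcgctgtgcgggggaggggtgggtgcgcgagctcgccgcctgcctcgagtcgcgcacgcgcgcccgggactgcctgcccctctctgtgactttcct
Gria4: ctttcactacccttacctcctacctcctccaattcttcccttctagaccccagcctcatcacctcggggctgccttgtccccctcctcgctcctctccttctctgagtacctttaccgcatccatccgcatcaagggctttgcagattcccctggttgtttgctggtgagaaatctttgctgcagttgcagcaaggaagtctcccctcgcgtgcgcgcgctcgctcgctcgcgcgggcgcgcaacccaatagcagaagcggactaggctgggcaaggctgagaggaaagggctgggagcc
The capitals in the Gria2 promoter, positions 81 to 94 of the window, mark a match to CTGTCC and GGTGCT separated by 2 bases of any kind (NN), the core of the RE1 element that the repressor REST binds in neuronal genes. This motif was chosen after the sequence had been seen. Searched on both strands, it was held by 17 of 32841 promoters (0.0518%) and was not found in the other 5 windows, Gria4 included. The Gria2 window had 65.7% G and C and 26 CpG, and the Gria4 window had 59.7% and 17, against medians of 52.7% and 7 over all promoters.

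Each library held between 56563586 and 96192142 counts (median 70434612), and the lowest count of any receptor gene in any library was 4401, so depth did not limit these genes. Within a group the mean correlation of a library with the others of its group was 0.9845 to 0.9922, with the lowest value in the NeuN- library labelled DKO replicate 3. That library also had the highest summed level of 3 choroid plexus genes (Ttr, Folr1 and Kl), at 181 CPM (counts per 1 M counts of the library) against 5.9 and 54.7 in the others of its group and 5.9 to 181 over all NeuN- libraries. The targeted genes were examined first. Mutyh RNA in NeuN+ nuclei was 1.23 ± 0.0718 CPM in WT and 10.9 ± 0.901 in the libraries labelled Mutyh-/- (mean ± SD, n = 3 each), so it went against the label. It was also high in the libraries labelled DKO (9.94 ± 1.95) and not in Ogg1-/- (1.31 ± 0.145). Ogg1 RNA of NeuN+ nuclei was 3.29 CPM in WT, 3.46 in Ogg1-/- and 3.36 in the libraries labelled DKO, so neither target showed a loss of RNA. Which exons the alleles lack was not examined here, and counts over a whole gene need not show such a loss. Each genotype name therefore stands for the libraries so labelled. The deposited counts followed the whole gene span rather than the exons, as the methods summary states with its values, and levels of different genes were therefore compared per kb of gene span.

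In WT NeuN+ nuclei the AMPA subunits Gria1 and Gria2 had the highest levels of the 9 genes per kb. Gria1, the subunit that enters pyramidal cell synapses during potentiation, reached 11.5 ± 0.664 CPM per kb of span (mean ± SD, n = 3) and Gria2 9.62 ± 0.804. Grik5, the common high-affinity kainate subunit, followed with 3.74 ± 0.133. Gria3 (2.07 ± 0.164), Grik4 (1.67 ± 0.0421) and Grik2 (1.5 ± 0.147) formed the middle of the order, and Grik3 (0.922), Gria4 (0.783) and Grik1 (0.452) its lower end. The libraries of Grik4 and Grik2 overlapped, and every other pair of neighbours was separated. The order of the 9 genes was the same in all 4 genotypes of NeuN+ nuclei, with 1 overlapping pair of neighbours in each.

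The order in NeuN- nuclei was another. In WT, Gria2 was highest (2.3 ± 0.123 CPM per kb), followed by Grik5 (1.7) and Gria1 (0.831 ± 0.0965). Grik2 (0.618) and Grik4 (0.612) overlapped, as did Grik1 (0.388) and Grik3 (0.379). Gria3 stood last at 0.283, below Gria4 at 0.528. The ends of this order (Gria2, Grik5, Gria1 at the top and Gria3 at the bottom) were shared by all 4 genotypes, and 2 pairs of neighbours overlapped in each.

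**Figure D1:**
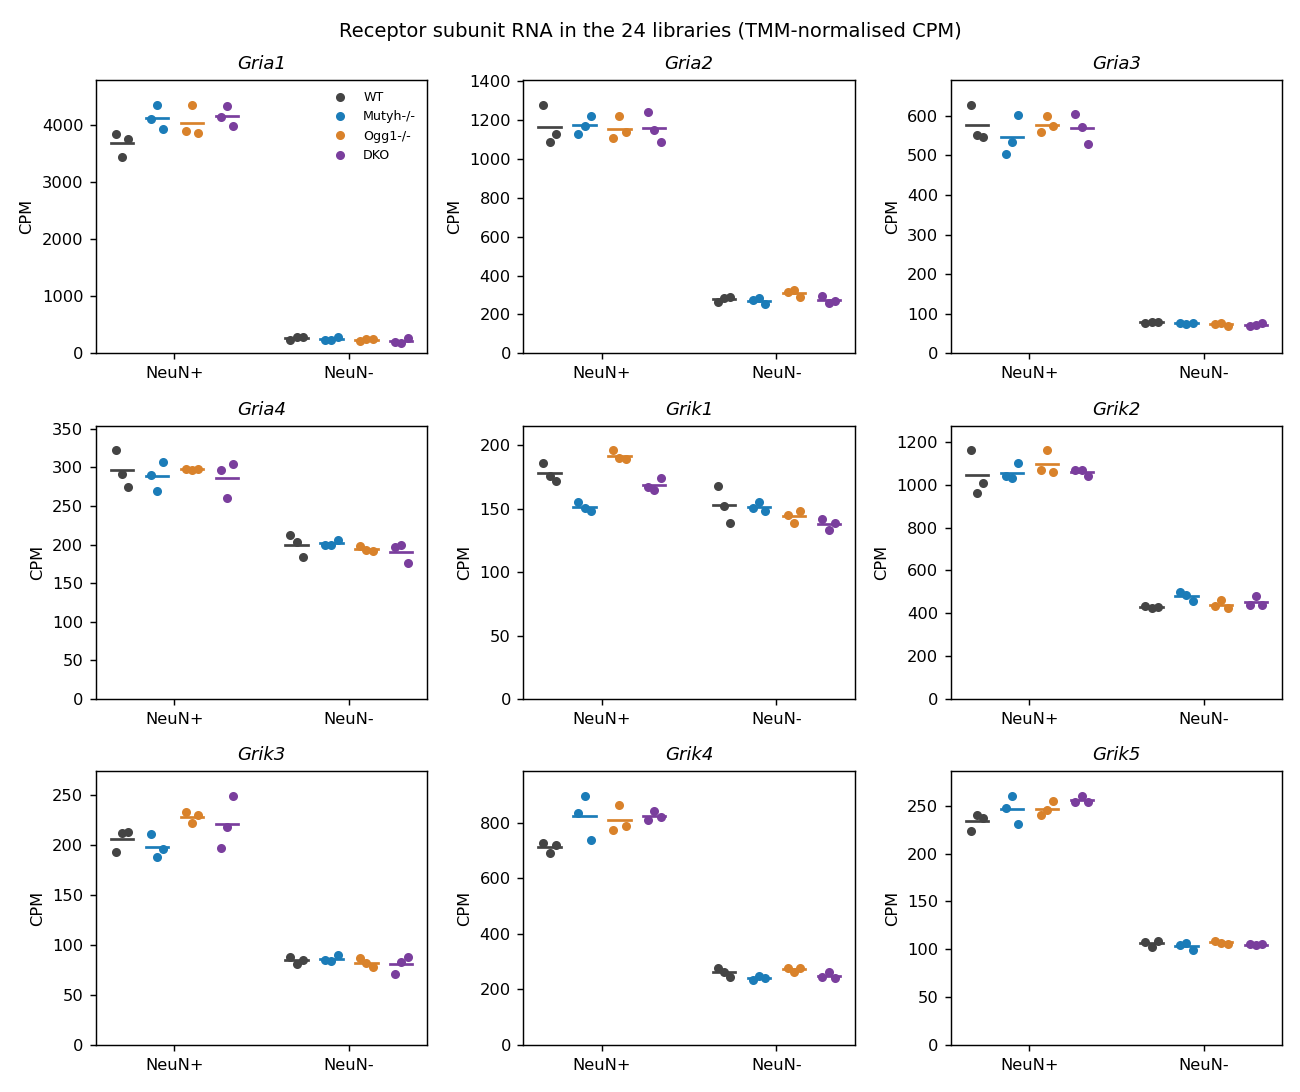
Level of each receptor gene in each of the 24 libraries, as CPM (linear axis), by genotype and cell type. The NeuN+ libraries of Gria1 lie from 3440 to 4350 and its NeuN- libraries from 188 to 288, while the libraries of Grik1 from both cell types lie close together.

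All 4 AMPA and all 5 kainate subunit genes were tested between the cell types. In WT, 7 of 9 were called higher in NeuN+ nuclei (adjusted p below 0.05 and a log2 difference above 1), where 21.3% of the 33523 genes tested were. The same count, 7 of 9, was reached in the libraries labelled Mutyh-/- (21.8% of genes), in Ogg1-/- (21.7%) and in those labelled DKO (20.8%), and no receptor gene was called lower. The median log2 difference of the 9 genes in WT was 1.28, beside -0.014 over all genes. NeuN+ and NeuN- libraries were sequenced on different lanes, so the effects of lane and of cell type cannot be told apart. In bulk samples of this kind, fewer cells of a type and less RNA per cell cannot be told apart either.

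Gria1 differed most. Its level was 3840, 3440 and 3750 CPM in the 3 WT NeuN+ libraries and 230, 277 and 288 in the NeuN- libraries. Every neuronal library was far above every non-neuronal one, with a log2 difference of 3.79 (SE 0.12, adjusted p = 6.22e-18 by edgeR's quasi-likelihood test), a 13.9-fold higher level. Across genotypes the difference ran from 3.79 to 4.24.

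Gria3 and Gria2 came next. Gria3, whose product pairs with GluA2 in pyramidal cells, had 628, 552 and 547 CPM in WT NeuN+ and 76.7, 79.3 and 79.7 in NeuN- nuclei. The groups were far apart, by 2.87 on the log2 scale (SE 0.07, adjusted p = 8.93e-20, 7.33-fold). Gria2 had 1280, 1090 and 1130 CPM in NeuN+ and 263, 283 and 292 in NeuN- nuclei. Its libraries too were separated, with a log2 difference of 2.06 (SE 0.07, adjusted p = 3.54e-17, 4.17-fold).

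Gria4, the AMPA subunit known from fast-spiking interneurons and from oligodendrocyte precursors, behaved otherwise. Its WT levels were 322, 292 and 274 CPM in NeuN+ and 212, 204 and 184 in NeuN- nuclei. The libraries did not overlap, but the difference of 0.57 (SE 0.07, adjusted p = 1.39e-07, 1.48-fold) lay below the fold limit, and it was 0.51 to 0.62 over the 4 genotypes. Expressed as a share of the NeuN+ level, the NeuN- level of Gria4 was 67.5%, against 24% for Gria2, 13.6% for Gria3 and 7.21% for Gria1.

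Of the kainate subunits, 4 of 5 were called. Grik4, known for its expression in CA3 pyramidal cells, had 725, 691 and 718 CPM in WT NeuN+ and 277, 261 and 245 in NeuN- nuclei. All 3 neuronal libraries were higher, by 1.45 (SE 0.06, adjusted p = 1.82e-15, 2.72-fold). Grik3 (1.28, SE 0.08, 2.44-fold), Grik2 (1.28, SE 0.06, 2.43-fold) and Grik5 (1.14, SE 0.05, 2.2-fold) followed closely, with adjusted p-values of 1.27e-12, 9.63e-15 and 7.07e-16. Grik2 encodes GluK2, a pore-forming subunit that is itself edited. Its libraries ranged from 962 to 1160 CPM in WT NeuN+ and from 423 to 436 in NeuN- nuclei, without overlap.

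Grik1, whose product GluK1 is known from hippocampal interneurons, hardly differed between the cell types. Its WT levels were 186, 176 and 172 CPM in NeuN+ and 168, 152 and 139 in NeuN- nuclei. The neuronal libraries were all higher, but only by 0.22 (SE 0.05, adjusted p = 0.00107, 1.16-fold). In the libraries labelled Mutyh-/-, the NeuN+ levels of 155, 151 and 148 CPM and the NeuN- levels of 151, 155 and 148 overlapped, at 0.999-fold (adjusted p = 0.976). In Ogg1-/- the difference was 0.41 (adjusted p = 4.77e-07) and in the libraries labelled DKO 0.29 (adjusted p = 5.5e-05).

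**Figure D2:**
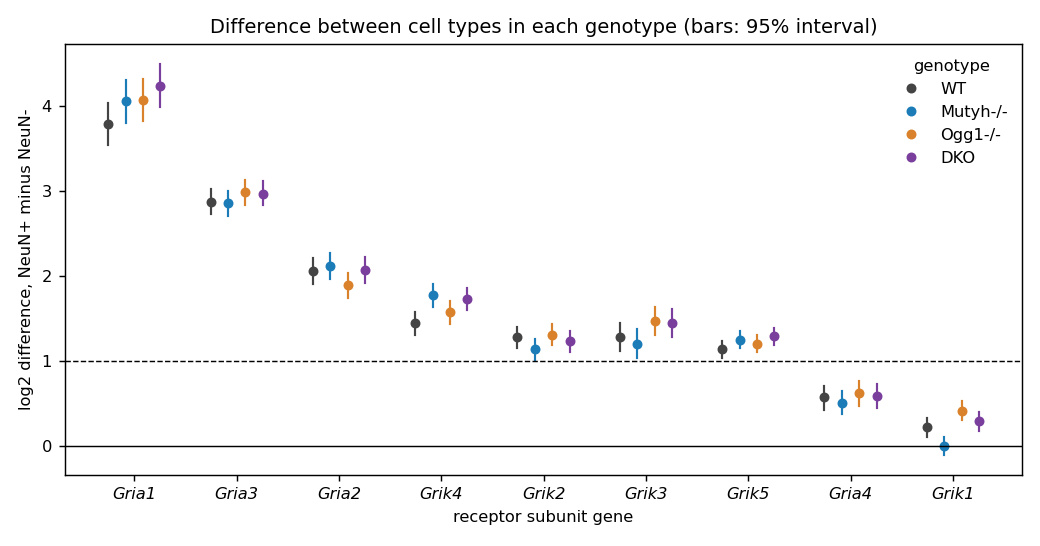
Log2 difference between NeuN+ and NeuN- nuclei (95% interval) of each receptor gene in the 4 genotypes, from the fit over all 24 libraries. Gria1 (3.79 in WT), Gria3 (2.87) and Gria2 (2.06) lie farthest to the neuronal side, while Gria4 (0.57) and Grik1 (0.22) stay below the limit of 1.

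The part of these NeuN- levels that comes from neuronal nuclei in the NeuN- gate was not tested. Values that bear on it are those of neuronal genes in the same libraries. Of the WT NeuN+ level, 6.17% of Rbfox3 (the gene of NeuN), 6.67% of Syt1 and 11.8% of Snap25 were found in NeuN- nuclei. Other neuronal genes had 10.9% (Slc17a7), 11.5% (Camk2a), 13% (Neurod6) and 126% (Prox1). The interneuron genes listed below had 8.41% (Vip) to 27.7% (Gad1). The share of Gria1 (7.21%) lay within the range of the first 3 genes and that of Gria3 (13.6%) just above it. Gria3 and Gria2 (24%) lay within the range of the interneuron genes. The kainate subunits had 36.7% (Grik4) to 85.9% (Grik1). The summed level of Rbfox3, Syt1 and Snap25, the 3 neuronal markers used below, was 4160 to 4890 CPM over the 12 NeuN+ libraries and 223 to 335 over the 12 NeuN- libraries. The 5 oligodendrocyte markers summed to 117 to 140 and to 4500 to 6770 CPM, and the 3 markers of their precursors to 15.9 to 19.6 and to 433 to 539. No marker was at 0 in all libraries.

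The make-up of each receptor family differed accordingly. Over the 12 NeuN+ libraries, Gria1 made up 50.2 ± 1.86% (SD) of the AMPA subunit level per kb and Gria2 38.5 ± 1.3%. In the 12 NeuN- libraries Gria2 had 60.1 ± 2.61% and Gria1 19.5 ± 2.28%. The share of Gria4 was 3.11 ± 0.238% in NeuN+ and 13.4 ± 1.11% in NeuN- nuclei, and for each of these 3 genes the libraries of the cell types did not overlap. Gria3 had 8.2 ± 0.474% and 6.94 ± 0.413%.

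Among the kainate subunits, Grik5 held 45.1% of the level per kb in NeuN+ and 45.8% in NeuN- nuclei. Grik2 had 17.6% in both cell types, and Grik3 had 11% and 10.2%. Grik4 had the larger share in NeuN+ (21.3% against 16.3%) and Grik1 in NeuN- nuclei (10.1% against 5.03%). The sum of the AMPA subunits was 24.9 ± 1.18 CPM per kb in NeuN+ and 3.89 ± 0.205 in NeuN- nuclei, and that of the kainate subunits 8.71 ± 0.342 and 3.68 ± 0.0802 (n = 12). Per kb of span, AMPA subunit RNA thus exceeded kainate subunit RNA 2.86 ± 0.135 times in NeuN+ nuclei, but only 1.06 ± 0.0583 times in NeuN- nuclei. These shares, sums and ratios depend on the length used, and the ratio was not taken per kb of exon. Per kb of exon, Gria1 had 78.7% and Gria2 8.93% of the AMPA level in NeuN+ nuclei, and Grik4 (42.8%) took the place of Grik5 (15.3%). In NeuN- nuclei Gria1 then had 41.2%, Gria4 32.2% and Gria2 18.8%. Gria1 thus led in both cell types per kb of exon, and the lead of Gria2 in NeuN- nuclei held only per kb of span.

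**Figure D3:**
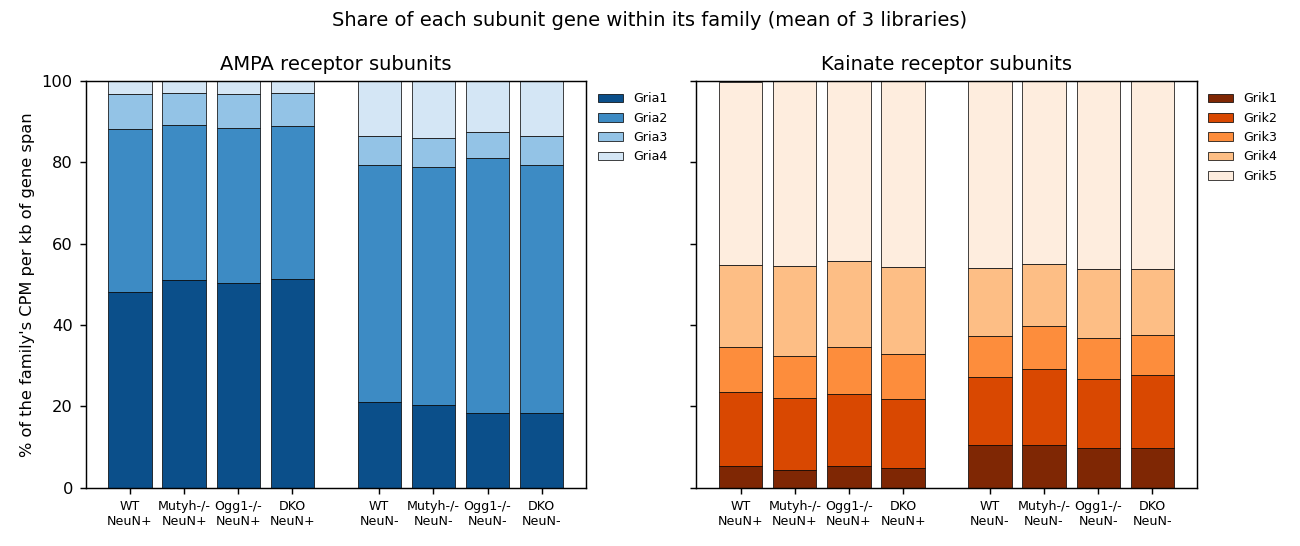
Share of each subunit in the summed level per kb of gene span of its family, AMPA and kainate, in each genotype and cell type (mean of 3 libraries). Gria1 (50.2% over the NeuN+ libraries) and Gria2 (60.1% over the NeuN- libraries) change places, while Grik5 keeps 45.1% and 45.8%. Per kb of exon Gria1 has the largest AMPA share in both cell types (78.7% and 41.2%).

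No receptor gene was called in any knockout compared with WT. In NeuN+ nuclei, the largest differences were seen for Grik4 (0.22, 0.17 and 0.20 on the log2 scale in the libraries labelled Mutyh-/-, Ogg1-/- and DKO), for Gria1 (0.17, 0.11 and 0.16) and for Grik1 (-0.23, 0.09 and -0.09). In NeuN- nuclei, the largest was that of Gria1 in the libraries labelled DKO, at -0.28. All 54 differences from WT lay between -0.28 and 0.22, with 95% intervals reaching from -0.57 to 0.35. The 3 comparisons of a cell type share their WT libraries, so they are not independent of each other.

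The call required an adjusted p below 0.05 and a log2 fold change beyond 0.5 in edgeR's quasi-likelihood test. It was met by 0 of 9 receptor genes in NeuN+ nuclei labelled Mutyh-/- (0.428% of the 30132 genes tested), Ogg1-/- (0.574%) and DKO (0.302%), and by 0 of 9 in NeuN- nuclei labelled Mutyh-/- (0.273% of 31863), Ogg1-/- (0.229%) and DKO (0.116%). DESeq2 also called 0 in each of the 6 comparisons. At an unadjusted p below 0.05 there were 3, 1 and 4 receptor genes in NeuN+ nuclei, where 18.7%, 12.3% and 13.5% of all genes passed. In NeuN- nuclei there were 2 in each genotype, where 13.7%, 11.8% and 12.4% passed. The median log2 fold changes of the 9 genes were 0.01, 0.06 and 0.01 in NeuN+ and -0.05, -0.05 and -0.07 in NeuN- nuclei, beside medians within 0.01 of zero over all genes.

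Libraries of a knockout and of WT did not overlap for 3, 5 and 3 of 9 receptor genes in NeuN+ nuclei, against 21.6%, 20.1% and 17.5% of all genes. The corresponding counts in NeuN- nuclei were 1, 1 and 2 of 9, against 19.2%, 19.4% and 16.8%. Gria1 and Grik4 were above WT in every library of all 3 genotypes of NeuN+ nuclei.

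Grik1 gave the smallest p-value. Its NeuN+ levels were 186, 176 and 172 CPM in WT, 155, 151 and 148 in the libraries labelled Mutyh-/-, 196, 190 and 189 in those labelled Ogg1-/- and 167, 165 and 174 in the libraries labelled DKO. All libraries labelled Mutyh-/- were below all WT libraries, all labelled Ogg1-/- were above them, and those labelled DKO overlapped with WT. The log2 fold change of the libraries labelled Mutyh-/- was -0.23 (SE 0.04, 95% interval -0.32 to -0.14, adjusted p = 0.0274), so it passed the adjusted p, as 0.641% of genes did, but not the fold limit. The adjusted p rested on the choice of libraries. It was above 0.05 in 5 of the 6 fits that left out 1 library (0.0529 to 0.132) and was 0.0218 without replicate 3 labelled Mutyh-/-, while the log2 fold change stayed between -0.25 and -0.21. It was 0.076 when only the groups compared were fitted and 0.00053 with DESeq2. In Ogg1-/- the difference was 0.09 (adjusted p = 0.443) and in the libraries labelled DKO -0.09 (adjusted p = 0.367).

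Compared with each other, the single knockouts differed in Grik1. The NeuN+ libraries labelled Ogg1-/- were above those labelled Mutyh-/- by 0.32 (SE 0.04, 95% interval 0.22 to 0.41, adjusted p = 0.00131), with no overlap, which again lay below the fold limit. The libraries labelled DKO stood between them, 0.14 above those labelled Mutyh-/- (adjusted p = 0.585) and 0.18 below those labelled Ogg1-/- (log2 difference -0.18, adjusted p = 0.241).

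The summed level of 6 interneuron genes (Gad1, Gad2, Sst, Pvalb, Vip and Slc32a1) is given beside Grik1. In NeuN+ nuclei it was 152, 163 and 158 CPM in WT, 128, 138 and 102 in the libraries labelled Mutyh-/-, 151, 138 and 131 in those labelled Ogg1-/- and 132, 132 and 126 in those labelled DKO. All 6 genes had lower values in the libraries labelled Mutyh-/- (log2 fold change -0.48 to -0.31, median -0.4), and 0 of 6 were called. In DKO 6 of 6 and in the libraries labelled Ogg1-/- 5 of 6 were lower (medians -0.29 and -0.22), whereas Grik1 was at 0.09 in the latter. Over the 12 NeuN+ libraries, Grik1 and this sum had r = 0.58 (Spearman's rho 0.48, and r = 0.39 without the 2 libraries farthest from the median). The part of interneuron number in the Grik1 values was not tested.

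Grik4 in NeuN+ nuclei was 725, 691 and 718 CPM in WT, 835, 895 and 737 in the libraries labelled Mutyh-/-, 772, 863 and 788 in those labelled Ogg1-/- and 810, 842 and 819 in those labelled DKO. Every knockout library was above every WT library. The log2 fold changes were 0.22 (SE 0.06, 95% interval 0.08 to 0.35), 0.17 (0.03 to 0.3) and 0.20 (0.06 to 0.33), with unadjusted p-values of 0.00393, 0.0189 and 0.00708 and adjusted p-values of 0.106, 0.275 and 0.189 by the quasi-likelihood test. The library labelled Mutyh-/- replicate 3 was the lowest of its group, and without it the value was 0.30 (adjusted p = 0.00662). With DESeq2 the adjusted p in the libraries labelled Mutyh-/- was 0.0414, and without the low-count filter 0.0186.

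Gria1 in NeuN+ nuclei was 3840, 3440 and 3750 CPM in WT, 4090, 4350 and 3930 in the libraries labelled Mutyh-/-, 3890, 4340 and 3850 in those labelled Ogg1-/- and 4140, 4320 and 3970 in those labelled DKO. Each knockout library exceeded the WT libraries, by the smallest margin in the libraries labelled Ogg1-/-. The fold changes of 0.17, 0.11 and 0.16 (SE 0.06 in the first) had adjusted p-values of 0.143, 0.455 and 0.251. Without the low-count filter the first was 0.0385, and without replicate 3 labelled Mutyh-/- it was 0.0498.

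Marker sums of hippocampal subfields are given beside both genes. The CA3 genes Cdh24, Bok and Iyd summed to 22.8, 23.8 and 24.8 CPM in WT, 30.1, 29.8 and 26.2 in the libraries labelled Mutyh-/-, 26.9, 27 and 27.4 in those labelled Ogg1-/- and 27.8, 27.1 and 27.8 in those labelled DKO. Every knockout library had a higher sum than WT, but in each knockout 2 of the 3 genes had higher and 1 had lower values. In the libraries labelled Mutyh-/- the fold changes ran from -0.5 to 0.56, and 1 gene was called (Cdh24, 0.56, adjusted p = 0.02). With Grik4 the CA3 sum had r = 0.84 over the 12 NeuN+ libraries (rho 0.78, and 0.77 without the 2 farthest libraries). With Gria1 it had 0.68 (rho 0.71, and 0.54). The CA1 genes Wfs1 and Mpped1 had a sum of 164 to 190 CPM, with r = -0.8 to Grik4 (rho -0.81, and -0.6 without the 2 farthest) and -0.88 to Gria1 (rho -0.9, and -0.76). The dentate gyrus genes Prox1 and Dsp had r = 0.54 to Grik4 (rho 0.54, and 0.35) and 0.57 to Gria1 (rho 0.52, and 0.54). These subfield sums were not the only correlates. The 3 neuronal markers had r = 0.9 to Gria1 (rho 0.86, and 0.81) and 0.84 to Grik4 (rho 0.87, and 0.7). The 4 excitatory neuron genes (Slc17a7, Camk2a, Neurod6 and Prox1) had 0.69 to Gria1 (rho 0.66, and 0.61) and 0.76 to Grik4 (rho 0.73, and 0.62). The highest r of Grik4 was to the 5 microglia markers (0.92, rho 0.92, and 0.87), which also had 0.86 to Gria1 (rho 0.85, and 0.77) although their sum only ranged from 84 to 89 CPM. The WT NeuN- level was only 233% (P2ry12) and 415% (Cx3cr1) of the NeuN+ level for some of these markers. For Csf1r, C1qa and Tmem119 it was 6410% to 29300%. What part of the microglia sum in NeuN+ nuclei comes from microglia was not tested. In all, 234 correlations of the 9 genes with 13 marker lists were computed over both cell types, of which 14 had an absolute r above 0.75. The points share libraries and scaling, and the part of cell make-up in the Grik4 and Gria1 values was not tested.

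**Figure D4:**
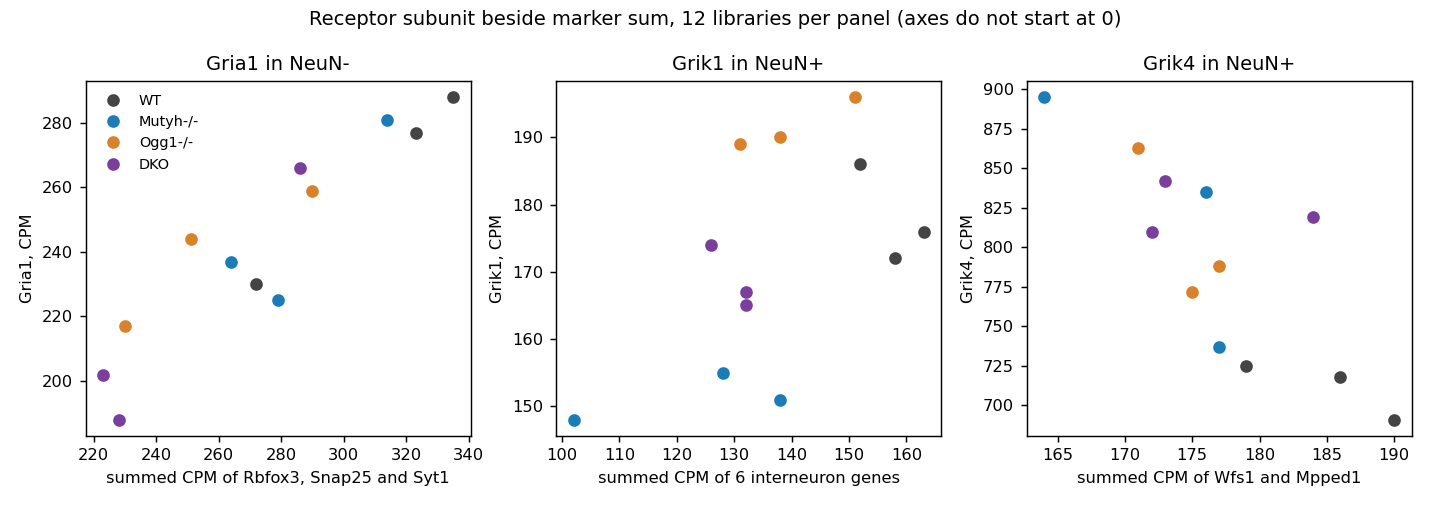
Level of a receptor gene (CPM) against the summed level of a marker list (CPM) in 12 libraries of a cell type, coloured by genotype, on axes that do not start at 0. Gria1 in NeuN- nuclei goes with Rbfox3, Snap25 and Syt1 (r = 0.92), Grik1 in NeuN+ nuclei goes loosely with 6 interneuron genes (r = 0.58), and Grik4 in NeuN+ nuclei goes against Wfs1 and Mpped1 (r = -0.8).

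The remaining subunits in NeuN+ nuclei stayed near WT. Grik5 was 224, 240 and 237 CPM in WT and 254, 260 and 254 in the libraries labelled DKO, which were all higher, by 0.12 (unadjusted p = 0.0399, adjusted p = 0.348). In Ogg1-/- Grik5 (240, 246 and 255 CPM against 224, 240 and 237) began just above the highest WT library, with a fold change of 0.06 (adjusted p = 0.688). Grik3, a presynaptic subunit at mossy fibres, was 193, 212 and 213 CPM in WT and 233, 222 and 230 in the libraries labelled Ogg1-/-, all higher, by 0.13. Its fold changes in the other two genotypes were -0.05 and 0.09. For Gria2, Gria3, Gria4 and Grik2 the 12 fold changes lay between -0.07 and 0.06, and no knockout was separated from WT. WT replicate 1 was the highest WT library for 7 of the 9 genes.

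In NeuN- nuclei, Gria1 varied most. It was 230, 277 and 288 CPM in WT, 225, 237 and 281 in the libraries labelled Mutyh-/-, 217, 259 and 244 in those labelled Ogg1-/- and 202, 188 and 266 in those labelled DKO. All groups overlapped, and the coefficient of variation over the 12 libraries was 13.2%, against at most 9.23% for any other gene and cell type of the set. The fold changes were -0.11, -0.15 and -0.28 (SE 0.13, 95% interval in the libraries labelled DKO -0.57 to 0.01, adjusted p = 0.414).

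The 3 neuronal markers moved with it. Their sum in NeuN- nuclei was 272, 323 and 335 CPM in WT, 279, 264 and 314 in the libraries labelled Mutyh-/-, 230, 290 and 251 in those labelled Ogg1-/- and 223, 228 and 286 in those labelled DKO. The order of the libraries was nearly that of Gria1 (r = 0.92, rho 0.91, and 0.88 without the 2 farthest libraries, n = 12). Gria3 had r = 0.86 to the same sum (rho 0.88, and 0.76), while the other 7 genes had values between -0.34 and 0.42. All 3 markers had lower values in the NeuN- nuclei of each knockout (medians -0.11, -0.29 and -0.31), with 0 called. Other neuronal lists differed in how they went with Gria1 in NeuN- nuclei. The interneuron sum had r = 0.85 (rho 0.84) and the CA1 sum 0.68 (rho 0.69). The excitatory neuron sum had only 0.31 (rho 0.31), the CA3 sum 0.06 and the dentate gyrus sum -0.2. The part of neuronal nuclei in the NeuN- values of Gria1 and Gria3 was not tested.

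Gria3 in NeuN- nuclei was 76.7, 79.3 and 79.7 CPM in WT, 74.2, 75.3 and 69.1 in the libraries labelled Ogg1-/- and 69.3, 72 and 75.8 in the libraries labelled DKO. Both knockouts were below WT without overlap, at a fold change of -0.12 in each (adjusted p = 0.377 and 0.345). Grik2 was 436, 423 and 428 CPM in WT and 498, 487 and 458 in the libraries labelled Mutyh-/-. These were all higher than WT, by 0.16 (unadjusted p = 0.0119, adjusted p = 0.238), and those labelled DKO (439, 480 and 439 CPM) were also all higher, by 0.07. Gria2 was 263, 283 and 292 CPM in WT and 316, 328 and 292 in the libraries labelled Ogg1-/-, with a fold change of 0.15 (adjusted p = 0.412) and overlapping libraries. In the same NeuN- comparison 6 of 6 astrocyte markers had higher values (median 0.25) and 1 was called (Aldh1l1, 0.52, adjusted p = 0.0483), as 6 of 6 had in the libraries labelled DKO (median 0.25, 0 called). Over the 12 NeuN- libraries Gria2 and the astrocyte sum had r = 0.61 (rho 0.45, and 0.64 without the 2 farthest), and the part of astrocyte share in the Gria2 values was not tested. Grik1 in the libraries labelled DKO (-0.16, adjusted p = 0.346) and Grik4 in the libraries labelled Mutyh-/- (-0.12, adjusted p = 0.348) overlapped with WT too. Gria4, Grik3 and Grik5 had fold changes between -0.07 and 0.02.

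**Figure D5:**
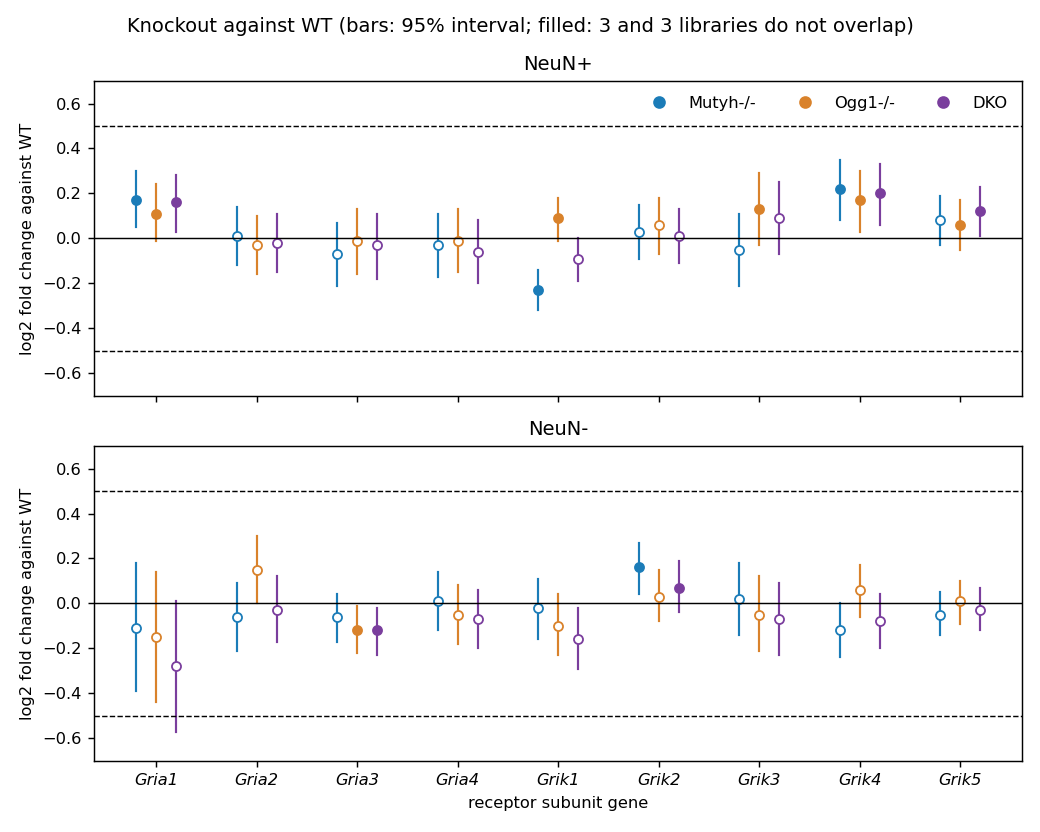
Log2 fold change of each receptor gene in each knockout against WT (95% interval), in NeuN+ and NeuN- nuclei, with filled points where the knockout and WT libraries do not overlap. All 54 values lie between -0.28 and 0.22, inside the fold limit of 0.5.

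The knockouts were also compared with each other. By the same call, 0 of 9 receptor genes passed in NeuN+ nuclei between DKO and Mutyh-/- (0.139% of genes), DKO and Ogg1-/- (0.216%) or Ogg1-/- and Mutyh-/- (0.485%), nor in NeuN- nuclei (0.122%, 0.132% and 0.521%). DESeq2 also gave 0. At an unadjusted p below 0.05 there were 1, 1 and 2 in NeuN+ nuclei, where 6.86%, 4.26% and 12.7% of genes passed, and 0, 2 and 3 in NeuN- nuclei, where 11%, 4.34% and 11.5% passed. Beside Grik1 in NeuN+ nuclei, the largest values were Gria2 (0.21, adjusted p = 0.233) and Grik4 (0.18, adjusted p = 0.198) of NeuN- nuclei and Grik3 of NeuN+ nuclei (0.18, adjusted p = 0.33), each higher in the libraries labelled Ogg1-/- than in the libraries labelled Mutyh-/-. Gria1 in NeuN- nuclei was at -0.18 in the libraries labelled DKO against the libraries labelled Mutyh-/- (adjusted p = 0.641), and Gria2 at -0.18 in those labelled DKO against Ogg1-/- (adjusted p = 0.997).

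Whether a genotype's effect differed between NeuN+ and NeuN- nuclei was tested as an interaction. The adjusted p was below 0.05 for 0 of 9 receptor genes for Mutyh-/- (0.0209% of 33523 genes), for Ogg1-/- (0.0537%) and for DKO (0.0567%). DESeq2 gave 1, 0 and 0. At an unadjusted p below 0.05 there were 2, 1 and 3, where 8.58%, 7.09% and 9.4% of genes passed. Grik4 in the libraries labelled Mutyh-/- was 0.22 above WT in NeuN+ and -0.12 in NeuN- nuclei, a difference of 0.32 in the fit over all libraries (SE 0.09, unadjusted p = 0.00125, adjusted p = 0.277). With DESeq2 it was 0.34 (adjusted p = 0.0418). Gria1 in the libraries labelled DKO had 0.16 in NeuN+ and -0.28 in NeuN- nuclei, a difference of 0.45 (SE 0.15, adjusted p = 0.344). The NeuN- library labelled DKO replicate 3 was the highest of its group in Gria1, and without it the difference was 0.61 (adjusted p = 0.0414). This is the library with 181 CPM of choroid plexus genes, whose part in the value was not tested.

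Other genes of the receptor complexes were counted from fixed lists. Over all 33523 genes in WT, 21.3% were called higher in NeuN+ nuclei, and 14371 genes were called in either direction. Of the AMPA receptor auxiliary subunits and assembly factors, 12 of 17 were called higher in NeuN+ nuclei and 1 lower (median 2.24). The 1 lower gene was Cacng4, which encodes a transmembrane AMPA receptor regulatory protein. It had 8.08, 8.47 and 8.39 CPM in NeuN+ and 163, 149 and 150 in NeuN- nuclei, a log2 difference of -4.21 (adjusted p = 4.43e-19). Of the kainate receptor auxiliary and organizing genes (Neto1, Neto2, C1ql2 and C1ql3), 4 of 4 were higher (median 2.45), as were 11 of 13 scaffold and trafficking genes (median 2.04), 3 of 3 RNA editing enzymes (median 1.71) and 1 of 2 delta receptors.

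None of these 39 genes was called in a knockout compared with WT in either cell type, where 0.116% to 0.574% of all genes were. Nptxr, the neuronal pentraxin receptor that gathers AMPA receptors, came closest. In NeuN- nuclei it had 29.7, 34.1 and 31.1 CPM in WT, 22.3, 23.1 and 22.5 in the libraries labelled Ogg1-/- and 24.4, 23 and 22.9 in the libraries labelled DKO. Both knockouts were below WT without overlap, by log2 fold changes of -0.49 (SE 0.08, adjusted p = 0.0132) and -0.44 (adjusted p = 0.0461), which did not reach the fold limit. The smallest p-values of the other lists in NeuN+ nuclei belonged to Shisa7 (0.25, adjusted p = 0.127), Frrs1l (-0.23, 0.116) and Shisa6 (0.23, 0.191) among AMPA auxiliary genes, to Neto2 (0.18, 0.163) and C1ql3 (-0.21, 0.275 and -0.11, 0.591) among kainate auxiliary genes, and to Nptx2 (-0.58, 0.0933) and Akap5 (-0.27, 0.0683 and -0.23, 0.131) among scaffold genes, for Mutyh-/-, Ogg1-/- and DKO in this order. In NeuN- nuclei they were Syndig1 (-0.49, 0.162), Frrs1l (-0.26, 0.22) and Syndig1 (-0.37, 0.291), C1ql3 in all 3 genotypes (-0.34, 0.173, then -0.34, 0.168, then -0.40, 0.13) and, in the libraries labelled Mutyh-/-, Nptxr (-0.34, 0.105). The editing enzymes and the delta receptors had fold changes from -0.08 (Adarb1) to 0.11 (Grid1) in these 6 comparisons.

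The gene whose level followed each receptor gene most closely was sought among 13914 genes over all 24 libraries, after the mean of each cell type had been removed. For Gria1 it was Kcnj6 (r = 0.952), for Gria2 Reps1 (0.798), for Gria3 Kcnd2 (0.808) and for Gria4 Dnm3 (0.803). For the kainate subunits it was Limk1 for Grik1 (0.801), Pcdh9 for Grik2 (0.873), Elfn1 for Grik3 (0.769), Plxna4 for Grik4 (0.822) and Tmem201 for Grik5 (0.81). Among the receptor genes themselves, Grik4 and Grik5 were most alike (0.66) and Gria4 and Grik5 least (-0.5).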

How the data were processed

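Nuclear RNA of sorted NeuN+ and NeuN- hippocampal nuclei was sequenced after a stranded total RNA kit. The authors deposited raw counts per gene in 2 tables. The submitters' processing notes name HISAT2 2.1.0, SAMtools 1.10, FastQC 0.11.9, featureCounts, R 4.3.2, edgeR 3.42.4 and GRCm38, and the annotation was Ensembl 102. The authors state that nuclei of several animals per genotype were pooled for RNA. Whether a replicate was 1 such pool of nuclei was not clear, so p-values measure the spread between these libraries. In the counts, single-exon genes inside introns had a median 1.12 times (NeuN+) and 1.09 times (NeuN-) their host's count per kb of span (opposite strand 1.06 and 1.05), and 0.0416 and 0.0443 of its count per kb of exon. Hence levels were divided by gene span, not exon length as planned.

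Genes were filtered by filterByExpr and TMM-scaled, and edgeR 4.0.16 (quasi-likelihood test, R 4.3.3) was fitted to the 12 libraries of a cell type (30132 genes in NeuN+, 31863 in NeuN-) or to all 24 (33523), with Benjamini-Hochberg adjustment over all genes. Printed CPM use the TMM factors of all 24 libraries. Alternatives were DESeq2 1.42.0, RLE factors, other filters, a replicate block, only the groups compared and leaving out each library. All receptor genes were named. Of each other list, the genes called and the one with the smallest p in each comparison with WT were named, and of like genes the closest. Members and lists were chosen with earlier results of these data known. The scripts were tested on simulated data.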

Additional observations from a re-analysis of the deposited data

How the results depend on the processing

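Of 1242 alternative values of the 90 fold changes, 1188 kept their direction and side of the thresholds, and 52 turned their sign, all for fold changes of at most 0.09 in size. The counts of receptor genes called (0 of 9 between genotypes, 7 of 9 between cell types) held under RLE factors, both filters and the fit of only the groups compared. Without the fold limit, 1 receptor gene (Grik1) passed in the libraries labelled Mutyh-/- against WT and 1 (Grik1) in Ogg1-/- against Mutyh-/-, both in NeuN+ nuclei. DESeq2 gave 1 (Grik4) in the Mutyh-/- interaction, and leaving out 1 library gave 0 to 1 (Gria1) in the DKO interaction. Whether libraries of the same replicate number came from the same sorted nuclei is not given in the sources used here. Their deviations had r = 0.011 to 0.292 between cell types (median 0.107, positive in all 12 pairs, 6 of 12 over 0.1). With WT within a cell type r was -0.223 to 0.174 (median -0.015). Not every pair was over 0.1, and the main fits treat the libraries as unpaired. A weak pairing between cell types was not excluded by these values. With a replicate block 0 of 9 receptor genes were called between genotypes and in the interactions and 7 of 9 between the cell types of each genotype, as without it. Grik1 in the libraries labelled Mutyh-/- had -0.23 with an adjusted p of 0.0501, so it no longer passed without the fold limit. Over all genes, DESeq2 called 388 against 129 by edgeR in Mutyh-/- NeuN+ nuclei and 173 against 91 in DKO, and 231, 179 and 178 against 87, 73 and 37 in NeuN- nuclei, while the block gave 171 in DKO NeuN+ and 63 in DKO NeuN- nuclei. Between knockouts, DESeq2 called 223 against 146 (Ogg1-/- and Mutyh-/-, NeuN+) and, in NeuN- nuclei, 151 against 39 (DKO and Mutyh-/-), 68 against 42 (DKO and Ogg1-/-) and 303 against 166 (Ogg1-/- and Mutyh-/-). For the interactions, edgeR gave 7, 18 and 19, DESeq2 81, 65 and 223 and the block 31, 26 and 53.

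Values that turned sign when 1 library was left out had these ranges. In NeuN+ nuclei against WT they were, for Mutyh-/-, Gria2 -0.03 to 0.07, Gria4 -0.08 to 0.03 and Grik2 -0.02 to 0.1, for Ogg1-/-, Gria2 -0.07 to 0.04, Gria3 -0.04 to 0.05 and Gria4 -0.06 to 0.05, and for DKO, Gria2 -0.07 to 0.04, Gria3 -0.08 to 0.03, Gria4 -0.11 to 0.01, Grik2 -0.03 to 0.09 and Grik3 -0.01 to 0.16. In NeuN- nuclei they were, for Mutyh-/-, Gria4 -0.04 to 0.05, Grik1 -0.09 to 0.05 and Grik3 -0.01 to 0.05, for Ogg1-/-, Grik2 0 to 0.05 and Grik5 -0.01 to 0.03, and for DKO, Gria2 -0.08 to 0.01 and Grik3 -0.13 to 0.02. In the interactions they were, for Mutyh-/-, Gria3 -0.09 to 0.05 (0 with RLE factors and 0 with DESeq2) and Gria4 -0.11 to 0.01, for Ogg1-/-, Gria4 0 to 0.11 and Grik2 -0.02 to 0.12, and for DKO, Gria2 -0.04 to 0.08, Gria4 -0.04 to 0.09, Grik1 0 to 0.14 and Grik2 -0.1 to 0.03. The 95% intervals of the differences from WT, which reach from -0.57 to 0.35, limit what 3 libraries a group can show.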
